A study of Mus musculus with 8 samples.

Results

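The heavy chain variable (V) segments of the mouse immunoglobulin locus were followed in RNA from sorted bone marrow cells. Of 53647 gene identifiers in the count files, the 185 whose symbol starts with Ighv were taken, pseudogene segments included, and none was chosen by its level. The cells were lineage-negative and CD127-positive, and the 8 libraries fall into 4 knockout (KO1 to KO4, genotype label Tref1 -/-, read here as Trerf1) and 4 wild-type ones (WT1 to WT4, Trerf1 +/+). Trerf1 encodes a zinc finger transcription factor, and CD127, the product of Il7r, is a subunit of the interleukin 7 receptor and marks early lymphoid cells. Libraries were made from total RNA with a low-input kit. The labels give no age, strain or allele design and do not say whether each library comes from an animal of its own, so each p-value speaks of the spread among these libraries. Whether V segment use or level differed between KO and WT marrow is the question put to the data here.

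A heavy chain gene is assembled in developing B cells from a V, a D and a J segment by the RAG recombinase. D joins J first, and a V segment is then joined to the DJ product. V segments near the D segments can be reached over a short distance, whereas use of the far ones is known to need contraction of the locus. Pax5, Yy1 and Ezh2 are required for full use of the far segments in mouse pro-B cells. Unrearranged V segments also give germline transcripts, so a read count on a V segment does not tell a rearranged heavy chain from germline transcription.

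All 185 members lie on chromosome 12 (build GRCm39 by the count files), between Ighv5-1, which starts at 113536547, and Ighv1-86, which starts at 115973279. The 20 annotated D segments lie at lower coordinates, and distance is given below in kb from the D segment closest to the V segments, from 46.1 kb for Ighv5-1 to 2483 kb for Ighv1-86. By GENCODE type 113 members are V genes, 70 are V pseudogenes and 2 are second identifiers of Ighv5-8 and Ighv1-13. RefSeq types 11 members differently. Counted features were 244 to 480 bases long, with a median of 351 bases, and 183 lie on the minus strand against 2 on the plus strand.

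The sequences that the results turn on are shown first, as the first 300 bases of the spliced transcripts of GENCODE M21 (GRCm38), 5′ to 3′ from the start codon of the leader. Ighv1-23 and Ighv1-74 were the pair with the highest levels, Ighv1-15 is the closest relative of Ighv1-23, Ighv9-3 was the highest segment of KO1, and Ighv5-6 had the smallest p between the groups. In these 5 the capitals mark bases 163 to 174, the stretch of framework 2 that starts at the codon position of its conserved tryptophan. That codon is TGG in all of them but Ighv1-23, which has TGT there and so lacks the tryptophan codon. Ighv1-83 is the pseudogene with the highest level, and its capitals mark the in-frame stop codon at bases 58 to 60.
Ighv1-23: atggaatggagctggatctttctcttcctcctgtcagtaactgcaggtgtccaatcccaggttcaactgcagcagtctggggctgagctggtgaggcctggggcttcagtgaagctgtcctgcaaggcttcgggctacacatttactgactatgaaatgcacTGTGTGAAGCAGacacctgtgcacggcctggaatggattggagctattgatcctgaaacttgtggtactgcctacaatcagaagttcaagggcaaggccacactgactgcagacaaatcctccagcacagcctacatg
Ighv1-15: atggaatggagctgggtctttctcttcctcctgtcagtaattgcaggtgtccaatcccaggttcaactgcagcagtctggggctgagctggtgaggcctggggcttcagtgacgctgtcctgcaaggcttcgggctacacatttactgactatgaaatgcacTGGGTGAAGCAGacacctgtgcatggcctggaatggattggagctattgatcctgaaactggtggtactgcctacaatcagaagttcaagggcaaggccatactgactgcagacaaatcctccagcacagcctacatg
Ighv1-74: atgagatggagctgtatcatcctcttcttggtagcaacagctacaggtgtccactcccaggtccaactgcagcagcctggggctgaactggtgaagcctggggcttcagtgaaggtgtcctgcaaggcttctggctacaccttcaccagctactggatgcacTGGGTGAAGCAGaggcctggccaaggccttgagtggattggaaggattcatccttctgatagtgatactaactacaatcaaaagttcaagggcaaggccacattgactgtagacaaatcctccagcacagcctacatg
Ighv9-3: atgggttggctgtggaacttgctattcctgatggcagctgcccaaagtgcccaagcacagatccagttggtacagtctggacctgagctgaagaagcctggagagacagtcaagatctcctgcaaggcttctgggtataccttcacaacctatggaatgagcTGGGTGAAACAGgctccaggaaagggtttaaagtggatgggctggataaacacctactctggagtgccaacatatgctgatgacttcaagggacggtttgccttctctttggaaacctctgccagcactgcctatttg
Ighv5-6: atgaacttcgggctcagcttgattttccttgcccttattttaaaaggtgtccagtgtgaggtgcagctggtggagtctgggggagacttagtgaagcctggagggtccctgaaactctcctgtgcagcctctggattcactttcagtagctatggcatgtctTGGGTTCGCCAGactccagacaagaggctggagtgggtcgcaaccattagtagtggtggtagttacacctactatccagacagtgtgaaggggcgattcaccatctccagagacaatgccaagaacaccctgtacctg
Ighv1-83: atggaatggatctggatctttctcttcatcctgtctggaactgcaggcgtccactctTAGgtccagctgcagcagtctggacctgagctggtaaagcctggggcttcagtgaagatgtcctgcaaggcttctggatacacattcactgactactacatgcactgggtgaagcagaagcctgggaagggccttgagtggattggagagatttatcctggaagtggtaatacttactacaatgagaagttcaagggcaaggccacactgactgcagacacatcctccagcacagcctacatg

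Over the whole transcripts, Ighv1-23 differed from Ighv1-74 at 59 of 351 bases, an identity of 83.2%, and from Ighv1-15 at 7 bases, an identity of 98.01%. In the capitals the change is the same from either segment, G165T, with the base of Ighv1-74 or Ighv1-15 first and positions counted from 1 at the first base printed. Of 119 members whose transcript begins with ATG and reaches base 174, 80 had TGG at bases 163 to 165. Within family 1, the number after Ighv naming the family, 43 of 59 such members had TGG there and 2 had TGT, namely Ighv1-23 and Ighv1-24. Searched on the printed strand over whole transcripts, TGGGTGAAGCAG was held by 48 of the 185 members, which carried 52.1% of all Ighv counts. Ighv9-3 has TGGGTGAAACAG, held by 2 members, and Ighv5-6 has TGGGTTCGCCAG, held by 13. A stop codon in frame with the first ATG was present in 40 of the 42 pseudogene transcripts that begin with ATG. In all, 8 members had a relative of at least 98% identity. Reads of such pairs, Ighv1-23 and Ighv1-15 among them, can be placed on either or left out, so their values are uncertain to that extent.

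Total counts were 32821991 to 66515540 in the KO libraries and 31109744 to 73414626 in the WT libraries. Trerf1 stood at 13.4, 12.8, 12.1 and 22.1 CPM (counts scaled to library size with TMM factors) in KO1 to KO4, against 29.0, 32.1, 27.1 and 22.3 CPM in WT1 to WT4. The library labelled KO4 thus lay at the level of WT4, and the difference between groups had an exact permutation p of 0.0286 (two-sided), the smallest that 4 against 4 libraries allow. In the fit across all genes Trerf1 had a log2 fold change of -0.87 ± 0.20 (SE) and an adjusted p of 0.999 (edgeR). Il7r, which encodes CD127, was present in all libraries at 304 to 415 CPM in KO and 269 to 374 CPM in WT. Xist, the RNA that coats the inactive X chromosome, was at 447 to 768 CPM in KO1, KO3, KO4, WT1 and WT4 and at 0.0607 to 0.613 CPM in KO2, WT2 and WT3. Ddx3y, a gene of the Y chromosome, was at 93.5, 82.9 and 102.0 CPM in KO2, WT2 and WT3 and at 0 to 0.112 CPM in the other 5. Both groups thus hold libraries with Y-linked RNA and libraries nearly without it, although a folder name in the headers of all 8 count files holds the word male. The labels give no sex. Values are given below within these sets of 5 and 3 libraries where they part.

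The Ighv segments together held 28428 counts. Summed levels were 77.2, 73.6, 50.7 and 107.1 CPM in KO1 to KO4, against 67.8, 71.8, 97.6 and 60.9 CPM in WT1 to WT4. The highest and the lowest library were both KO, and the WT values lay between them. Group means were 77.1 ± 23.2 CPM in KO and 74.5 ± 16.0 CPM in WT (SD, n = 4 each), a log2 ratio of 0.049, well inside the spread. In bulk RNA, fewer cells of a type and less RNA per cell cannot be told apart. These sums are 0.00497% to 0.0107% of the counts in KO libraries and 0.00581% to 0.0102% in WT libraries, or 1648 to 7097 counts in KO and 2338 to 4737 in WT.

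The constant region of the same locus gave far more signal. Ighm, the mu heavy chain constant gene, stood at 3651, 3619, 3657 and 3949 CPM in KO1 to KO4, against 3357, 2839, 3171 and 4396 CPM in WT1 to WT4. Per kb of feature, the Ighv sum was 10.97%, 10.6%, 7.12% and 14.05% of the Ighm level in KO1 to KO4, against 10.4%, 13.2%, 16.1% and 7.17% in WT1 to WT4. For the kappa light chain the same quotient, of summed Igkv over Igkc per kb, was 51.2% to 69.96% in KO and 50.1% to 63.5% in WT. The 2 loci thus stood apart in this quotient in every library, while KO and WT overlapped within each. Ighj1, the J segment with the highest level of its kind, had 57.0 to 64.6 CPM in KO and 43.5 to 75.3 CPM in WT.

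**Figure D1:**
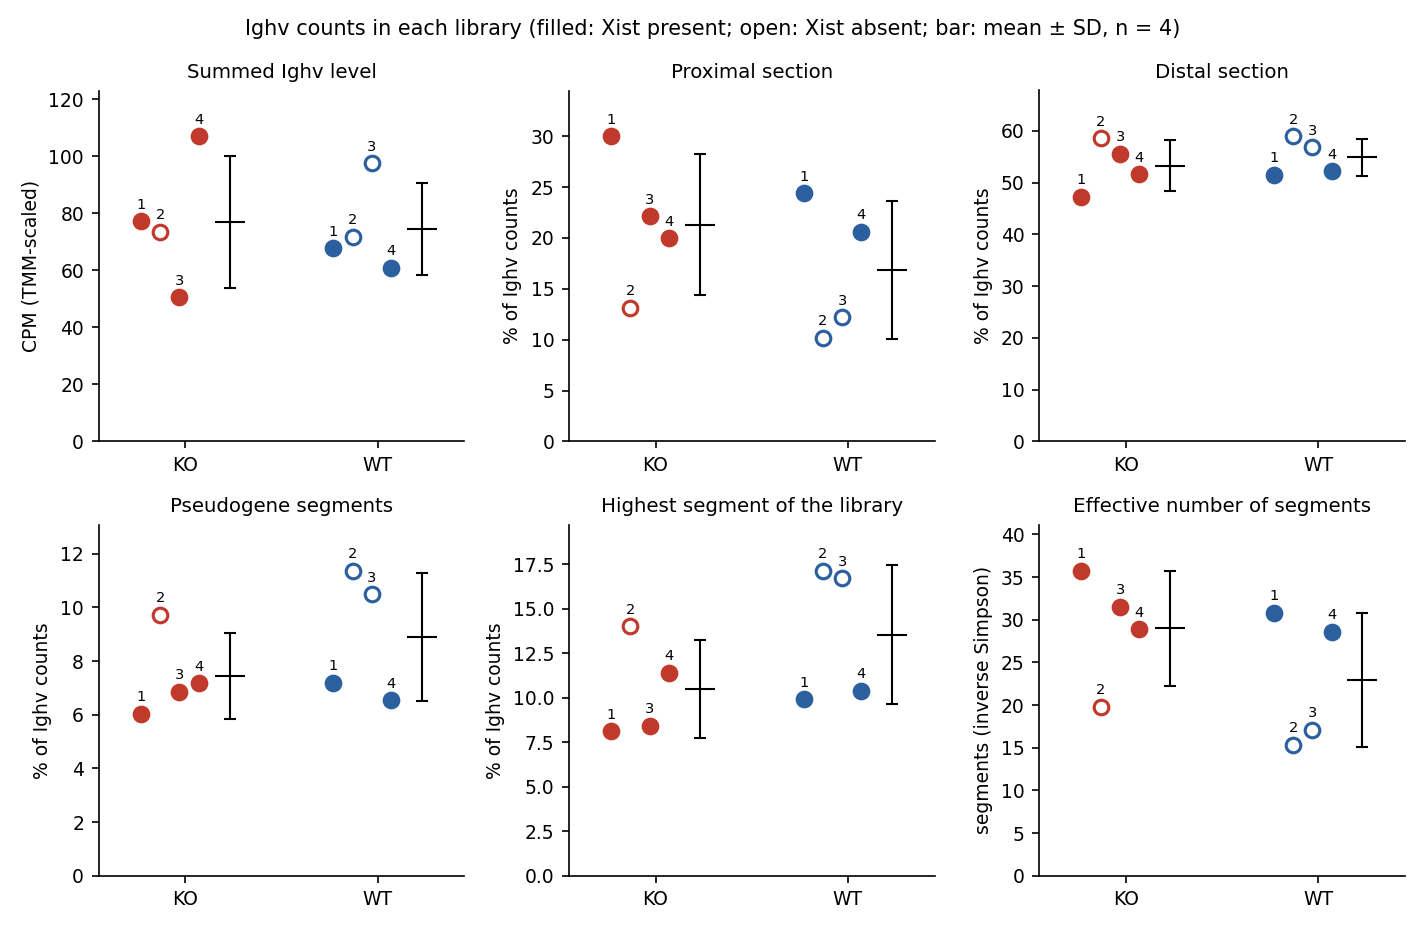
Summed Ighv level in CPM, shares of Ighv counts in percent and the effective number of segments, with 1 numbered point per library, KO left of WT, filled where Xist is present and open where it is absent, and bars for the mean ± SD (n = 4). KO and WT overlap in every panel, whereas KO2, WT2 and WT3 have the 3 lowest proximal shares, 10.2% to 13.1%, and the 3 highest pseudogene shares, 9.73% to 11.4%.

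Counts were spread unevenly over the members. Of the 185, 147 had at least 1 count in some library, 73 had counts in every library, and 32 had at least 10 counts in every library. The other 38 had no count in any library, 31 of them pseudogenes. A count of 0 in a library allows a level of up to 0.0453 to 0.0926 CPM in KO and 0.0428 to 0.0920 CPM in WT (3 counts, counting error only). This limit takes counts as independent. Single mates are counted and duplicates kept, so the true limit can be higher. Members with at least 10 counts numbered 60, 46, 47 and 83 in KO1 to KO4, against 55, 71, 59 and 69 in WT1 to WT4. After thinning all libraries to the smallest total the numbers were 57, 46, 45 and 63 in KO, against 52, 44, 59 and 47 in WT, so the groups overlapped at equal total counts as well.

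Levels of different segments were compared as CPM per kb of feature. The 12 members with the highest mean were Ighv1-23, Ighv1-74, Ighv1-81, Ighv1-77, Ighv9-3, Ighv1-82, Ighv1-76, Ighv1-69, Ighv14-4, Ighv1-83, Ighv1-26 and Ighv1-79, which together held 52.6% of all Ighv counts. Of them, 10 belong to family 1, the largest family with 93 members, and 8 lie in the distal section described below. In mice this family is the J558 group of segments. Family 1 held 71.6 ± 7.98% of the Ighv counts in KO and 76.4 ± 8.35% in WT (SD, n = 4 each), with ranges of 61.4% to 80.7% and 67.8% to 84.7%.

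Ighv1-23 (chr12:114728070-114728503, 1238 kb from the D segments) had 11.997, 29.4, 10.4 and 34.8 CPM per kb in KO1 to KO4, against 13.5, 35.1, 46.5 and 18.01 CPM per kb in WT1 to WT4. It was the highest member of 5 libraries, KO2, KO4, WT2, WT3 and WT4. The lowest and the highest library differed severalfold within both groups, and the groups overlapped. Its log2 fold change, KO over WT, was -0.38 ± 0.46 (SE; edgeR adjusted p = 0.999).

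Ighv1-74 (chr12:115766268-115766700, 2276 kb from the D segments) had 12.6, 25.6, 12.2 and 23.4 CPM per kb in KO1 to KO4, against 19.2, 29.4, 32.8 and 14.5 CPM per kb in WT1 to WT4. It was the highest member of KO3 and WT1. The 3 highest libraries were KO2, WT2 and WT3, whereas for Ighv1-23 the 3 highest were KO4, WT2 and WT3. The log2 fold change of Ighv1-74 was -0.38 ± 0.33 (SE; edgeR adjusted p = 0.999).

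Ighv9-3 (chr12:114104312-114104742, 614 kb from the D segments) had 17.9, 4.66, 4.20 and 10.2 CPM per kb in KO1 to KO4, against 8.51, 3.33, 9.17 and 8.30 CPM per kb in WT1 to WT4. KO1 stood highest, where Ighv9-3 was the leading member with 8.12% of the Ighv counts, and WT2 stood apart as low among the WT libraries. In KO1 there were 0.671 counts on Ighv1-23 for each count on Ighv9-3, in WT2 there were 10.5, and over the other 6 libraries 1.59 to 6.30. The order of the leading members thus differed between libraries of the same group.

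Of the remaining leading members, Ighv1-81 averaged 10.99 CPM per kb in KO and 9.94 in WT, and Ighv1-77 averaged 9.11 in KO and 11.2 in WT. Ighv1-82 averaged 7.49 in KO and 7.91 in WT. The others of the 12 averaged 3.73 to 5.50 CPM per kb in KO and 3.86 to 6.22 CPM per kb in WT. In each of the 12 the KO and WT libraries overlapped.

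**Figure D2:**
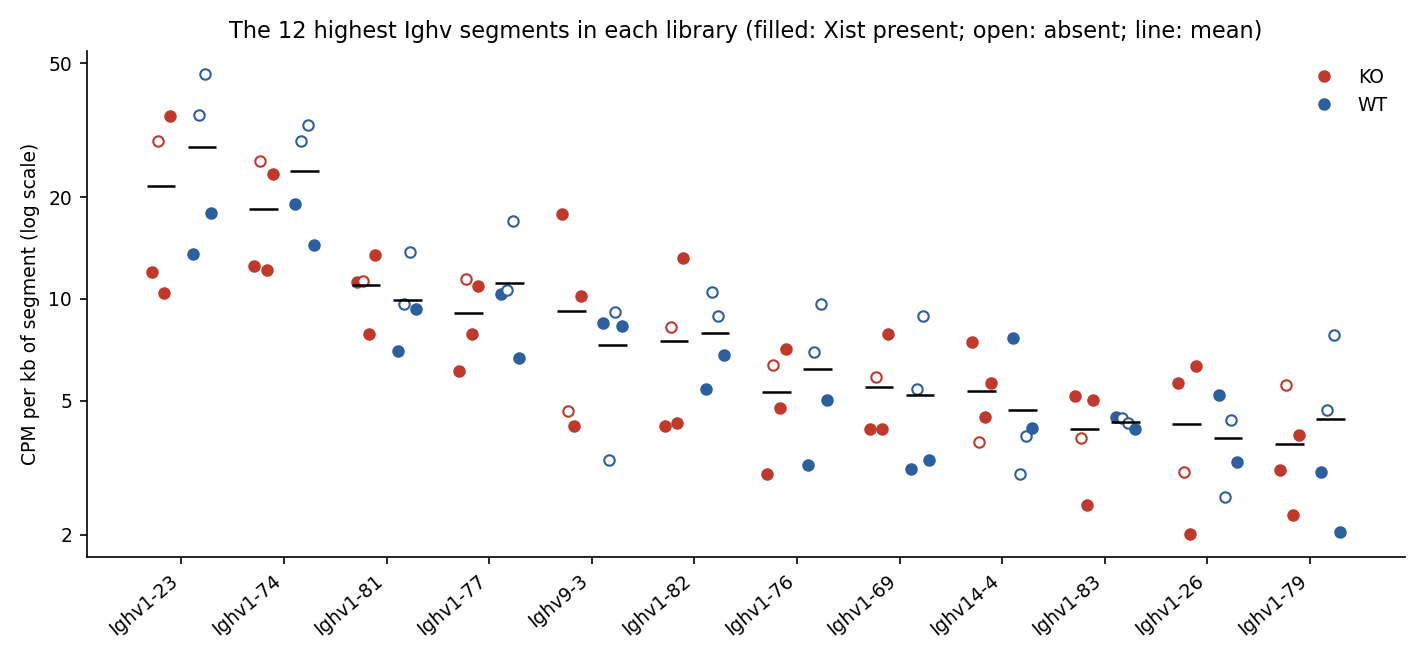
Level of the 12 highest members in CPM per kb on a log scale, with 1 point per library, KO left of WT for each segment, filled where Xist is present and open where it is absent, and lines at the group means. KO and WT points overlap for every segment, and the open points are the 3 highest for Ighv1-74, from 25.6 to 32.8.

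Between KO and WT no member passed the test. Of the 185 members, 52 passed the filter on low counts and hold 87.2% of the Ighv counts, and 133 were not tested. None of the 52 had an adjusted p under 0.05 (edgeR; smallest 0.999), and over all 16352 genes tested the share was 0%. At an unadjusted p under 0.05 there was 1 of the 52, Ighv5-6, beside 1.97% of all genes tested, and 1.04% that were higher in KO. DESeq2 gave 0 members past the adjusted threshold and 4 of 146 at an unadjusted p under 0.05, beside 1.88% of its genes. With limma-voom the number was 0 of 52, beside 5.45%, with no filter in edgeR 7 of 147, beside 2.78%, and at a mean CPM of at least 0.1 it was 3 of 85, beside 2.08%. No tested member had KO and WT values that did not overlap, where 0.74% of all genes tested lay wholly above in KO and 0.544% wholly below. Among members not tested, Ighv2-6, with 4 to 7 counts in KO and 0 to 1 in WT, and Ighv3-8, with 0 to 2 counts in KO and 2 to 4 in WT, did not overlap as CPM, and both are named for that after their values were seen. They are 1 above and 1 below of 95 such members with counts, where 0.497% of all 13676 genes not tested but with counts lay wholly above in KO and 0.665% wholly below.

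Estimates of the 52 ranged in log2 fold change from -0.84 to 1.27, with standard errors of 0.27 to 1.02 and a median standard error of 0.47. Of these estimates, 37 were positive and 15 negative, where 51.7% of all genes tested were positive, and their median was 0.21 against 0.0075 for all genes tested. That median was 0.034 without the library labelled KO4 and -0.00054 without it and WT4, 0.34 in the 5 libraries with Xist and -0.14 in the 3 without. The RSEM expected counts gave 3 positive and 8 negative estimates with a median of -0.14, limma-voom 28 positive and 24 negative with a median of 0.071. There were 25 positive and 28 negative estimates without the libraries labelled KO4 and WT4, and 27 and 38 in the 3 libraries without Xist. It rests on members that share libraries and reads, and it is a description only.

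Ighv5-6 (chr12:113589126-113589576, 98.7 kb from the D segments) belongs to family 5, whose members lie close to the D segments. It had 7.03, 3.15, 2.09 and 6.88 CPM per kb in KO1 to KO4, against 3.86, 1.85, 1.48 and 1.78 CPM per kb in WT1 to WT4. KO1 and the library labelled KO4 lay above all WT libraries, while KO2 and KO3 lay below WT1. Its estimate, KO over WT, was 1.11 ± 0.47 on the log2 scale (SE), with an unadjusted p of 0.0382 and an adjusted p of 0.999 (edgeR).

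The next smallest p values among higher estimates belonged to Ighv1-15, Ighv3-6, Ighv1-18 and Ighv1-50, with log2 fold changes of 0.90 ± 0.44, 1.27 ± 0.68, 0.97 ± 0.61 and 0.73 ± 0.50 (SE). Ighv3-6 had 4.14, 0.35, 1.32 and 3.66 CPM per kb in KO1 to KO4, against 1.16, 0.74, 0.35 and 1.63 CPM per kb in WT1 to WT4, so KO1 and the library labelled KO4 were again high and KO2 was as low as the lowest WT library. Ighv1-18 had 125 counts in the library labelled KO4 and 7 to 21 in the other KO libraries, against 17 to 25 in the WT libraries. Its estimate without that library and WT4 was -0.027.

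Among lower estimates, the smallest p values belonged to Ighv5-9-1, Ighv1-74, Ighv1-77, Ighv1-54 and Ighv1-66. Ighv5-9-1, a segment of family 5, had 0.95, 0.52, 0.60 and 0.66 CPM per kb in KO1 to KO4, against 1.68, 0.66, 1.19 and 0.90 CPM per kb in WT1 to WT4, a log2 fold change of -0.67 ± 0.43 (SE; edgeR adjusted p = 0.999). WT2 and WT4 lay inside the KO range, and WT1 and WT3 lay above it. The estimates for Ighv1-77 and Ighv1-54 were -0.29 ± 0.31 and -0.46 ± 0.55 (SE), and that of Ighv1-77 was -0.020 without WT3. Ighv1-66, at -0.84 ± 1.02 (SE), had 2, 22, 2 and 4 counts in KO1 to KO4, against 10, 21, 29 and 2 counts in WT1 to WT4, and was 0.21 in the 3 libraries without Xist alone. Without KO2 it was -2.58, with an unadjusted p of 0.0292 and an adjusted p of 0.99991 (edgeR), and without WT3 it was -0.018.

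**Figure D3:**
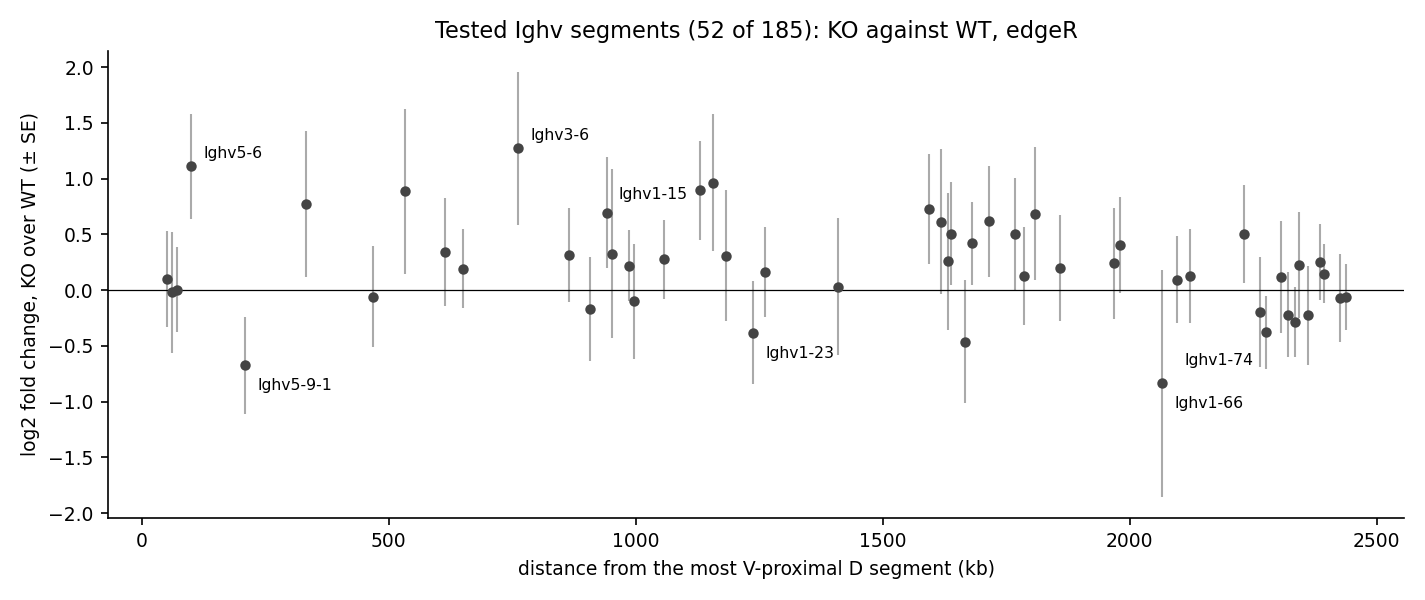
Log2 fold change (KO over WT, edgeR) with its standard error for the 52 tested members against distance from the D segments in kb. Estimates lie between -0.84 and 1.27 along the whole locus, and no tested member has an adjusted p under 0.05.

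Position along the locus was described with the members ranked by start and cut into 3 sections. The proximal section holds 62 members up to 787 kb from the D segments, the middle section 62 members from 793 to 1410 kb, and the distal section 61 members from 1419 to 2483 kb. Pseudogenes make up 21, 28 and 21 members of the proximal, middle and distal sections.

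The distal section held 47.2%, 58.5%, 55.6% and 51.6% of the Ighv counts in KO1 to KO4, against 51.5%, 58.9%, 56.8% and 52.2% in WT1 to WT4. Means were 53.2 ± 4.91% in KO and 54.9 ± 3.60% in WT (SD, n = 4 each), a difference of -1.62 percentage points. It was -4.59 points when the distal part was the upper of 2 equal parts by rank, -4.62 when it was families 1 and 8, -3.63 without the highest segment of each library, and 0.38 without KO1. By rank in 2 parts and by family the SD within each group was larger than the difference. The middle section held 25.4 ± 3.38% in KO and 28.3 ± 3.29% in WT. In every library the distal section thus carried the largest share of the counts, with KO and WT overlapping.

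The proximal section held 30%, 13.1%, 22.1% and 19.99% of the Ighv counts in KO1 to KO4, against 24.4%, 10.2%, 12.2% and 20.6% in WT1 to WT4. The 95% binomial intervals (Wilson) were 28.3% to 31.7% for KO1 and 11.8% to 14.5% for KO2, against 22.7% to 26.2% for WT1 and 9.35% to 11.1% for WT2. These intervals cover counting error only, and reads without molecular identifiers are not independent molecules. Means were 21.3 ± 6.95% in KO and 16.8 ± 6.75% in WT (SD, n = 4 each), a difference of 4.47 percentage points. That difference was 1.55 points within the 5 libraries with Xist and 1.93 points within the 3 without, where KO2 is the only KO library. With libraries left out in turn it ranged from 1.58 points without KO1 to 7.20 points without KO2. It was 5.72 points with RSEM expected counts, 4.59 by rank in 2 equal parts, 1.78 by families 2 and 5, and 2.20 without the highest segment of each library.

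**Figure D4:**
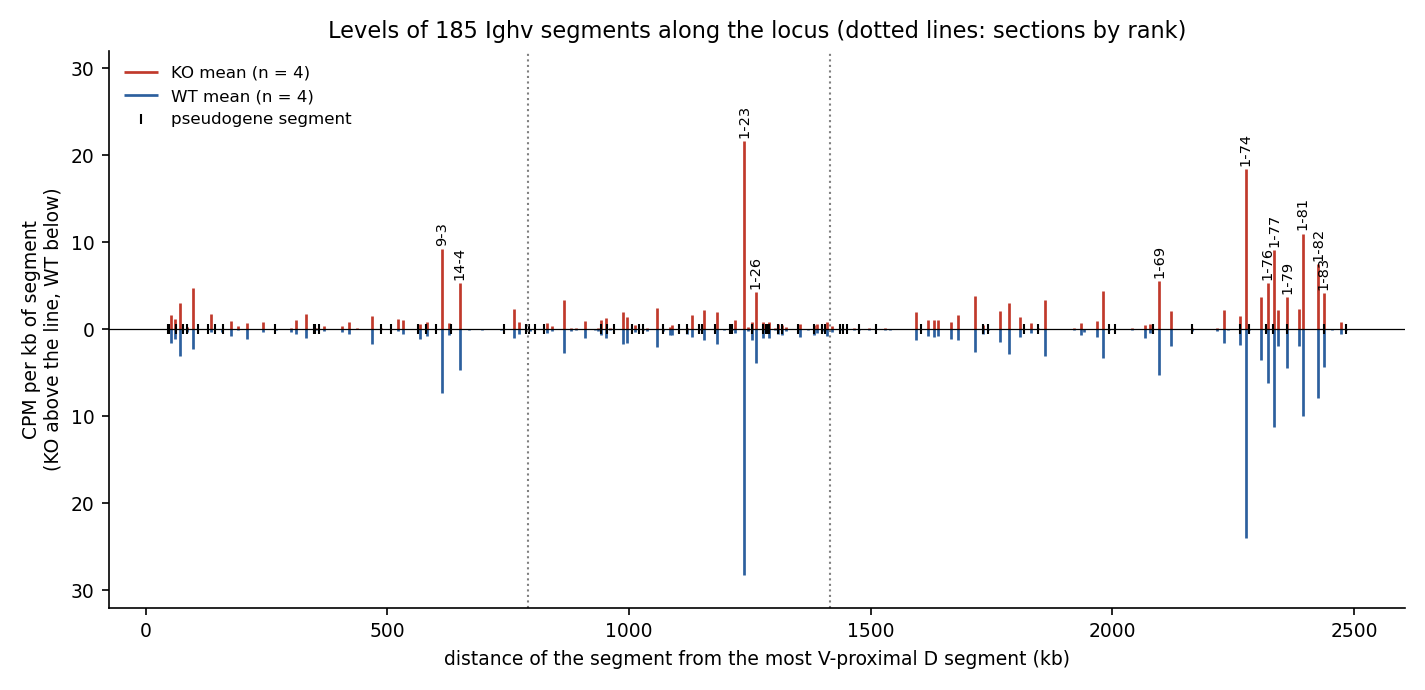
Mean level of the 185 members in CPM per kb, KO drawn upward and WT downward, against distance in kb from the D segment closest to the V segments, with ticks for pseudogenes and dotted lines between the 3 sections. Ighv1-23 stands alone in the middle section at 21.6 in KO and 28.3 in WT, and most of the other high members lie in the distal section.

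By position the tested members were 8 higher and 3 lower in the proximal section, 10 and 3 in the middle section, and 19 and 9 in the distal section. Median log2 fold changes were 0.19, 0.28 and 0.17 in that order. No section stood apart in these medians, which were close to the 0.21 of all 52.

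After family 1, the next largest mean share in both groups was that of family 5, whose 22 members lie between 46.1 and 793 kb. It held 7.55 ± 2.66% of the Ighv counts in KO and 6.002 ± 2.68% in WT (SD, n = 4 each). Family 2, with 11 members up to 352 kb, held 1.38 ± 0.323% in KO and 1.16 ± 0.301% in WT. Ighv5-2, the most proximal functional segment in mouse and known as 81X, averaged 1.61 CPM per kb in KO and 1.53 in WT, with 1.13 to 2.29 over the KO libraries and 0.81 to 2.46 over the WT libraries. Ighv5-4 averaged 3.04 CPM per kb in both groups, and its log2 fold change was 0.0052 ± 0.38 (SE; edgeR adjusted p = 0.999). Ighv2-2 averaged 1.14 CPM per kb in KO and 1.17 in WT.

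At the far end, Ighv1-85 (2473 kb) had 8 to 22 counts in KO and 0 to 26 in WT and was not tested. Family 8, whose 16 members are scattered from 806 to 2331 kb, held 3.05 ± 0.447% in KO and 2.87 ± 0.728% in WT, led by Ighv8-12 at 2.12 CPM per kb in KO and 1.96 in WT. Family 9, led by Ighv9-3, held 5.15 ± 2.96% in KO and 4.69 ± 1.93% in WT. Family 14, led by Ighv14-4, held 3.95 ± 1.18% in KO and 3.57 ± 1.57% in WT. Ighv6-3 averaged 3.41 CPM per kb in KO and 2.76 in WT, and Ighv10-3 averaged 1.39 in KO and 1.54 in WT. Ranges of KO and WT overlapped in all of these families.

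A few low members rested on a single library. Ighv11-2, a segment used by B-1 cells in mouse, had 8, 4, 61 and 2 counts in KO1 to KO4, against 6, 7, 0 and 2 in WT1 to WT4. Ighv12-3, another segment known from B-1 cells, had 2, 1, 1 and 32 counts in KO1 to KO4, against 4, 2, 0 and 4 in WT1 to WT4. Ighv5-9, named after its values were seen, had 6, 2, 2 and 176 counts in KO1 to KO4, against 10, 0, 9 and 2 in WT1 to WT4. In the library labelled KO4 the alpha constant gene Igha was also high, at 15.6 CPM against 0.67 to 2.96 in the other KO libraries and 0.64 to 2.80 in the WT libraries, and its part in the counts there of Ighv5-9 and Ighv12-3 was not tested. Of the smaller families, Ighv4-1 averaged 0.86 CPM per kb in KO and 0.52 in WT, Ighv7-3 averaged 0.71 in KO and 0.67 in WT, and Ighv13-2 averaged 0.68 in KO and 0.44 in WT. The lone member of family 16 had no counts.

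Pseudogene segments held 6.03%, 9.73%, 6.86% and 7.17% of the Ighv counts in KO1 to KO4, against 7.19%, 11.4%, 10.5% and 6.54% in WT1 to WT4. Means were 7.45 ± 1.595% in KO and 8.90 ± 2.39% in WT (SD, n = 4 each), and the groups overlapped. Of the 70 pseudogene members, 39 had counts and 4 were tested. Ighv1-83, with its stop codon at bases 58 to 60, had 5.16, 3.87, 2.45 and 5.03 CPM per kb in KO1 to KO4, against 4.46, 4.45, 4.28 and 4.11 CPM per kb in WT1 to WT4, a log2 fold change of -0.06 ± 0.30 (SE; edgeR adjusted p = 0.999). Ighv1-79, whose transcript has an in-frame stop at base 91, averaged 3.73 CPM per kb in KO and 4.395 in WT. RefSeq types both as V segments, and by its types the pseudogene share was 3.40 ± 1.01% in KO and 3.94 ± 1.57% in WT.

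Counts and the authors' expected counts weighted several of the pseudogenes differently. Over the 59 members with at least 100 counts, counts were 2.27 to 28.01 times the expected counts, with a median of 16.8 for 7 pseudogenes and 6.06 for 52 other members, against 4.36 over all 16433 genes with at least 100 counts. For Ighv1-83 the quotient was 21.8 and for Ighv1-23 it was 6.49. Counts per library were 5.30 to 8.30 times the expected counts in KO and 5.62 to 6.46 times in WT. By the median, the pseudogenes thus weighed less in the expected counts than in the counts used here. This did not hold for each of them. Ighv1-2 and Ighv1-73, at 5.88 and 5.93, lay below the median of the other members, and the V gene Ighv6-6 reached 16.

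The 3 libraries without Xist shared a pattern that crossed genotype. KO2, WT2 and WT3 had effective numbers of segments (inverse Simpson index) of 19.8, 15.3 and 17.1, whereas the 5 others had 28.6 to 35.8. Their leading member held 14.004% to 17.1% of the Ighv counts, against 8.12% to 11.4% in the other 5. Their proximal shares were 10.2% to 13.1% against 19.99% to 30%, and their distal shares 56.8% to 58.9% against 47.2% to 55.6%. Pseudogene shares were 9.73% to 11.4% against 6.03% to 7.19%. None of these ranges overlapped, although summed Ighv levels did, at 71.8 to 97.6 CPM against 50.7 to 107.1 CPM. The sets were formed after the data were seen, hold 1 KO and 2 WT libraries against 3 KO and 2 WT libraries, and were not tested.

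Some light chain and recombination genes, named after their values were seen, also parted along these sets, and others did not. How many of all genes part in this way was not counted. Igkc, the kappa constant gene, was at 55.1 CPM in KO2, 35.1 in WT2 and 66.4 in WT3, against 114 to 208 CPM in the other KO libraries and 126 to 150 CPM in the other WT libraries. Summed Igkv segments were at 25.3, 12.7 and 29.1 CPM in KO2, WT2 and WT3, against 43.4 to 73.9 CPM elsewhere. Dntt, the terminal transferase that adds bases at the joints, was at 3025, 2360 and 2355 CPM in KO2, WT2 and WT3, against 853 to 1792 CPM elsewhere. Rag1 was at 36.2, 40.9 and 42.7 CPM in those 3, against 15.5 to 27.1 CPM elsewhere, and Rag2 at 106.7, 94.8 and 92.4 CPM, against 35.7 to 83.7 CPM. Dclre1c and Lig4, also of the recombination machinery, went the other way. Dclre1c was at 44.1, 49.3 and 44.5 CPM in KO2, WT2 and WT3, against 53.8 to 89.0 CPM elsewhere. Lig4 was at 9.69, 10.1 and 11.3 CPM in them, against 11.7 to 14.7 CPM elsewhere. For Pax5, Ebf1 and Cd79a the sets overlapped. The part of these genes in the segment pattern was not tested.

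Between KO and WT the genes that act on the locus did not pass the test either. Of 15 genes of the recombination machinery 9 had higher and 6 lower estimates, and 0 passed an adjusted p of 0.05 in edgeR. Rag1 had a log2 fold change of -0.12 ± 0.31 and Dntt of 0.08 ± 0.33 (SE). Of 14 genes of locus contraction and accessibility 9 were higher and 5 lower with 0 past the threshold, and Pax5 stood at -0.05 ± 0.17, Yy1 at 0.10 ± 0.11 and Ezh2 at 0.03 ± 0.11 (SE). The list of octamer factors, which bind V segment promoters, and interleukin 7 signalling had 3 of 8 genes higher and 5 lower, with 0 past the threshold. Its median log2 fold change was -0.12, and those of the recombination and contraction lists were 0.06 and 0.03, against 0.0075 for all genes tested. None of the genes in these 3 lists had an unadjusted p under 0.05 (edgeR), beside 1.97% of all genes tested. Lists this short cannot be told from that share.

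Heavy chain constant genes other than Ighm were low. All 5 tested constant genes had positive estimates and 0 passed the threshold. Ighg2b averaged 22.7 ± 7.16 CPM in KO and 15.7 ± 0.762 CPM in WT (SD, n = 4 each), a log2 fold change of 0.53 ± 0.20 with an unadjusted p of 0.0217 and an adjusted p of 0.999 (edgeR). Ighd, the delta constant gene, averaged 55.2 ± 3.12 CPM in KO and 49.0 ± 4.06 CPM in WT. Ighe averaged 0.421 ± 0.122 CPM in KO and 0.215 ± 0.121 CPM in WT. Ighg1, Ighg2c and Ighg3 reached at most 0.956 CPM in KO and 0.425 CPM in WT and were not tested. Of 9 pre-B cell receptor genes found in the files 8 were higher and 1 lower, with 0 past the threshold. At an unadjusted p under 0.05 there was 1 of the 9, Cd79a, beside 1.97% of all genes tested. Cd79a, a signalling subunit of the receptor, averaged 119 ± 17.8 CPM in KO and 91.6 ± 6.41 CPM in WT (unadjusted p = 0.00781, adjusted p = 0.999, edgeR).

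Markers of other cell types were present in both groups, and the labels do not name the antibodies used for lineage depletion. The 9 mature B cell markers summed to 525 to 565 CPM in KO and 352 to 579 CPM in WT, and all 8 that were tested had positive estimates. Of that sum Cd72 alone gave 270 to 307 CPM in KO and 180 to 325 CPM in WT. No other marker of the list exceeded 102 CPM in KO or 81.9 CPM in WT. Cr2, which marks mature B cells, reached at most 0.307 CPM in KO and 0.696 CPM in WT. The 10 plasma cell markers summed to 988 to 1228 CPM in KO and 828 to 1417 CPM in WT, with 7 of 9 tested estimates positive. Most of that sum was Xbp1 (474 to 641 CPM in KO, 367 to 768 in WT), Sdc1 (338 to 426, 297 to 450) and Txndc5 (80.9 to 170, 97.4 to 119). No other plasma cell marker exceeded 32.9 CPM in KO or 29.7 CPM in WT. Jchain, which joins secreted antibody, averaged 13.1 ± 2.603 CPM in KO and 6.46 ± 3.28 CPM in WT (unadjusted p = 0.00843, adjusted p = 0.999, edgeR). Plasma cell regulator Prdm1 stood at 0.123 to 0.815 CPM in KO and 0.435 to 1.33 CPM in WT. In both lists 0 markers passed the threshold. The 9 T cell markers summed to 151 to 372 CPM in KO and 142 to 259 CPM in WT. Of that sum Cd4 alone gave 61.3 to 281 CPM in KO and 37.9 to 193 CPM in WT. No other T cell marker exceeded 44.1 CPM in KO or 46.5 CPM in WT, and Cd3d, Cd3e and Cd3g reached at most 15.1 and 8.10 CPM. The 7 myeloid markers summed to 472 to 678 CPM in KO and 486 to 536 CPM in WT, and the 6 erythroid markers to 37.7 to 199 CPM in KO and 43.3 to 506 CPM in WT. The 6 plasmacytoid dendritic cell markers summed to 3566 to 4484 CPM in KO and 3261 to 5878 CPM in WT. Some of these cells are known to carry D to J joints, and their part in the Ighv counts was not tested. Estimates were positive for 8 of 9 T cell, 7 of 7 myeloid, 0 of 6 erythroid and 2 of 6 plasmacytoid dendritic cell markers, and 0 passed the threshold in edgeR. An unadjusted p under 0.05 was found for 1 of 8 mature B cell, 2 of 9 plasma cell and 2 of 9 T cell markers tested. For myeloid markers it was 1 of 7, and for erythroid and plasmacytoid dendritic cell markers 0 of 6 each, beside 1.97% of all genes tested. The part of these marker lists in the estimates of the Ighv segments was not tested.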

How the data were processed

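Per the file headers, the authors made the deposited counts per gene with featureCounts 1.6.4 at default settings, under which both strands and single mates are counted, marked duplicates are kept and reads placed in several locations are left out. The authors also deposited RSEM 1.3.1 expected counts, which are estimates and need not be whole. Per the submitters' processing notes, the build was mm10 and the tools included STAR 2.6.0a and Picard 2.19, while the annotation path in the count files' headers names GRCm39, whose coordinates are used here. Symbols matched 97.1% of identifiers, and types came from GENCODE M21 by identifier.

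Counts of all genes were fitted in edgeR 4.0.16 (R 4.3.3; filterByExpr, TMM, quasi-likelihood test, Benjamini-Hochberg adjustment over all genes, threshold 0.05), and the steps were tested on simulated data. Shares and sums over members carry no test. Share intervals are Wilson binomial at 95%. Alternatives were DESeq2 1.42.0, limma-voom (limma 3.58.1), RSEM expected counts rounded to whole numbers, other scalings and filters, the replicate number as a block and libraries left out.

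Members, lists and naming rule were chosen with earlier results of these data known. The rule names the 12 highest members per kb, 5 per direction by p, the highest of each family and library, the members at either end, heavy chain constant genes and up to 3 genes by p of each other list. Names outside it, such as the Rag genes, Igkc and marker genes, were chosen after their values were seen.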

Additional observations from a re-analysis of the deposited data

Results flagged for a closer look

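Within the 4 libraries of a group, 7 of 82 segment and group combinations had a library whose gap to the nearest other exceeded Dixon's 95% critical value for a group of 4. Chance flags about 1 in 20 groups where values are normal and segments are not chosen by them. Here some segments were named by level or p, Ighv5-9 was named after its values were seen, and several had low counts. The 7 of 82 thus cannot be set against that rate. In 5 of the 7 the value was high and the counts of the segment were low in the other libraries. Ighv11-2 stood at 1.88 CPM in KO3, against 0.0302 to 0.223 CPM in the other KO libraries. Ighv5-9 stood at 2.65 CPM in KO4, against 0.0615 to 0.167 CPM, and Ighv12-3 at 0.483 CPM in KO4, against 0.0307 to 0.0558 CPM in the other KO libraries. Ighv1-66 stood at 0.679 CPM in KO2, against 0.0558 to 0.0615 CPM in the other KO libraries. Ighv4-1 stood at 0.442 CPM in WT4, against 0.121 to 0.174 CPM in the other WT libraries. The remaining 2 concern members named above for their level or their p. Ighv9-3 stood at 1.17 CPM in WT2, below the 2.91 to 3.22 CPM of the other WT libraries, and Ighv5-6 at 1.36 CPM in WT1, above the 0.521 to 0.652 CPM of the other WT libraries.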

How the results depend on the processing

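No Ighv segment passed the adjusted threshold under any alternative run. The number at an unadjusted p under 0.05 was 1 of 52 in the edgeR test (1.97% of all genes). It was 7 of 147 with no filter on low counts (2.78%) and 3 of 85 at a mean CPM of at least 0.1 (2.08%). DESeq2 gave 4 of 146 (1.88%), limma-voom 0 of 52 (5.45%) and RSEM expected counts 0 of 11 (1.89%). Without WT4 and KO4 it was 0 of 53 (8.75%), and in the 5 libraries with Xist 0 of 65 (1.54%). In the 3 libraries without Xist the lone KO library is assumed to vary like the WT libraries, so no such number is given. Leaving out each library gave 0 to 4: 4 of 67 without KO2 (1.73% of all genes), 2 of 65 without KO3 (1.45%), 1 of 64 without WT1 (1.55%) and 0 of 56 to 62 without KO1, KO4, WT2, WT3 or WT4 (1.01% to 6.08%). The cause was not tested. The difference in detected segments, KO minus WT, was -4.5 and became -19 in the 3 libraries without Xist, which compare KO2 alone with the deeper WT2 and with WT3. It was positive at a minimum of 30 counts (1.5), after thinning to the smallest total (2.25) and in the 5 libraries with Xist (1.33). Among named segments 2 estimates changed sign: Ighv1-18 to -0.027 without WT4 and KO4, and Ighv1-66 to 0.21 in the 3 libraries without Xist. With libraries left out in turn, the Ighv5-6 estimate ranged from 0.87 to 1.48, the proximal share difference from 1.58 to 7.20 percentage points, the distal one from -3.39 to 0.38 and the summed level from -0.15 to 0.21 (log2). The log2 ratio of summed levels, 0.049, was also negative with RSEM expected counts (-0.081), without WT4 and KO4 (-0.24) and in the 3 libraries without Xist (-0.20), and the distal difference was positive there (0.65). The replicate numbers did not meet the pairing rule: correlations of same-numbered libraries were 0.36, 0.31, -0.031 and 0.12, and 2 of 4 KO libraries correlated best with their own number. With the replicate block, 0 segments passed the threshold and 1 of 52 had an unadjusted p under 0.05, beside 3.88% of all genes. Low counts limit single segments.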
